A study of Mus musculus with 4 samples.

Results

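The genes described are 9 interferon-stimulated genes of the mouse, taken by symbol from an expression table of 24341 genes: Isg15, Ifit1, Ifit3, Oasl1, Oasl2, Irf7, Stat2, Rsad2 and Usp18. All 9 were in the table. Expression was measured by RNA sequencing of polyadenylated RNA from CAD cells (Cath.-a-differentiated), a catecholaminergic neuronal line of mouse brain that extends processes when serum is withdrawn. The tested libraries came from cells given ACSS2i, a small-molecule inhibitor of the enzyme ACSS2, at 20 µM for 24 h, and their controls from cells given the solvent DMSO for 24 h. There were 2 libraries of each kind, and all came from cells of the same line kept without serum for 5 days, so the results concern a single line and a single dose. ACSS2 makes acetyl-CoA from acetate, and the comparison asked which transcripts differed when the enzyme was inhibited. Nothing in the labels tells whether replicates were grown as separate cultures, and each p-value below therefore reflects library-to-library spread that may be technical.

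Type I interferons are secreted when a cell senses foreign or misplaced nucleic acid. They bind the receptor made of Ifnar1 and Ifnar2 and act through the kinases Jak1 and Tyk2 on STAT proteins, Stat2 among them, which join Irf9 in a complex that binds the interferon-stimulated response element (ISRE) upstream of target genes. The genes described are classical targets of this route. In many cells they are transcribed at a low level until interferon is present, and most of their products restrict viruses or regulate the response itself.

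Sequences upstream of the genes are shown first, since the ISRE is the element through which the complex acts. RefSeq promoters (GRCm38.p6, the same assembly as mm10) were matched for 8 of the 9 genes, and the 250 bases before each transcription start were searched on both strands for the core letters of the ISRE, which are GAAA, then 2 bases of any kind, then GAAA again. The letters were present upstream of 5 of the 8 genes. Among all genes with a RefSeq promoter, 936 of 27025 (3.46%) held them. The letters TTCNNNGAA of the gamma-activated site, the element of the interferon-gamma response, were upstream of 8.13% of all genes and of 0 of the 8. A match is a stretch of letters and not a known binding site. The stretches around the matches are given 5′ to 3′ on the strand of the gene, with the ISRE letters in capitals (a match on the opposite strand reads TTTC, 2 bases, TTTC).
Isg15, chr4:156200845-156200926, minus strand: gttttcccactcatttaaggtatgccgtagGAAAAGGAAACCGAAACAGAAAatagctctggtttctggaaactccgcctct
Ifit1, chr19:34640755-34640843, plus strand: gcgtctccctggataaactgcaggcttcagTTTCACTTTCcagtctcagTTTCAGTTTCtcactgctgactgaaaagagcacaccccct
Ifit3, chr19:34583343-34583446, plus strand: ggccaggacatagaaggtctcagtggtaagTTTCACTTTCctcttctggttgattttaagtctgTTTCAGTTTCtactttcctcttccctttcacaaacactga
Stat2, chr10:128270248-128270315, plus strand: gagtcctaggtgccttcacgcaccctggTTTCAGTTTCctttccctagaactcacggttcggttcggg
Rsad2, chr12:26456533-26456602, minus strand: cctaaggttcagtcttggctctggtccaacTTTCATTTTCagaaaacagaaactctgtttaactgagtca
Isg15 held 3 matches that overlap each other, between 78 and 57 bases before its start. Ifit1 and Ifit3 held 2 separate matches each, and Stat2 and Rsad2 held 1 each. The letters were not in the windows of Oasl1, Oasl2 and Irf7.

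**Figure D1:**
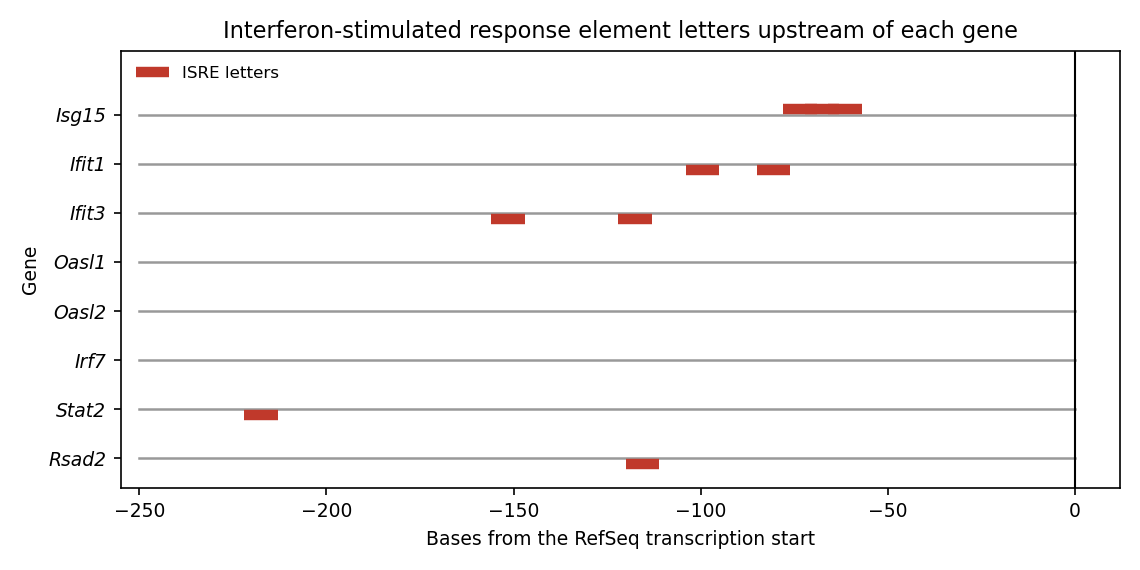
Positions of the ISRE letters in the 250 bases upstream of 8 genes, in bases from the RefSeq transcription start. Bars above a line are matches on the strand of the gene and bars below it matches on the opposite strand. Isg15 has 3 overlapping matches, the closest to a start among the 5 genes with a match.

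Expression values are taken as FPKM, fragments counted per kilobase of transcript and scaled to the size of the library, with a floor of 0.01 in the table. The libraries differed in depth: steps among the low values gave a nominal 7870000 and 9990000 reads for ACSS2i replicates 1 and 2, against 11700000 and 3400000 for DMSO replicates 1 and 2. The read numbers quoted below are nominal, the FPKM value multiplied by the length of the longest annotated coding transcript and by this depth. Their 95% Poisson intervals cover counting error only. Tests were run with limma on log2(FPKM + 1) over the 11486 genes whose mean across the 4 libraries was 1 FPKM or more, and log2 fold changes, ACSS2i over DMSO, are on that scale, which understates the change of low genes. The noradrenergic lineage marker Hand2 was at 111 and 229 FPKM in ACSS2i and 216 and 203 FPKM in DMSO, tyrosine hydroxylase (Th) was at 2.92 to 4.09 FPKM and Dbh at 0.226 to 0.624 FPKM. The summed level of the 20 neuronal and catecholaminergic markers was 1112 and 2321 FPKM in the ACSS2i libraries and 1735 and 1718 FPKM in the DMSO libraries.

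The genes fell into a set that was lower in both ACSS2i libraries than in both DMSO libraries and a set whose groups overlapped. Isg15, Ifit1, Oasl1, Oasl2 and Irf7 formed the first, 5 of the 9. Over all 24340 genes with 4 values, 11.4% had both ACSS2i values below both DMSO values, and over the 11486 tested genes 18.3% did. The first share includes genes at the floor in all libraries, which cannot meet the condition. Stat2, Usp18, Rsad2 and Ifit3 overlapped between groups. Of the 9, 0 had both ACSS2i values above both DMSO values, against 11.8% of all genes and 19% of tested genes. In each of the 5 lower genes the order was the same, with DMSO replicate 2 above DMSO replicate 1 and both ACSS2i libraries below them. That order was shown by 5.96% of all genes and 8.57% of tested genes. Among genes with both ACSS2i values below both DMSO values it was shown by 52.5%. In bulk samples fewer cells of a kind and less RNA per cell cannot be told apart. By limma, 0 of the 6 members that passed the filter had a Benjamini-Hochberg adjusted p under 0.05, and Ifit3, Irf7 and Rsad2 were not tested. Over all tested genes 3 did (0.0261%), none of them a member. They were the short RNA genes Mir7063, Snora16a and Snora64. At an unadjusted p under 0.05, limma gave Isg15, Ifit1 and Oasl2, all lower in ACSS2i, where 3.67% of tested genes were lower at that level, and 0 members higher, where 3.29% of tested genes were. Ifit1 and Oasl2 passed the filter through their DMSO values, so their number is not read against that share, and without the filter the unadjusted p was 0.0852 for Isg15, 0.0965 for Ifit1 and 0.127 for Oasl2. For a single gene in 2 against 2 libraries, the smallest p that an exact two-sided permutation test allows is 0.333.

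**Figure D2:**
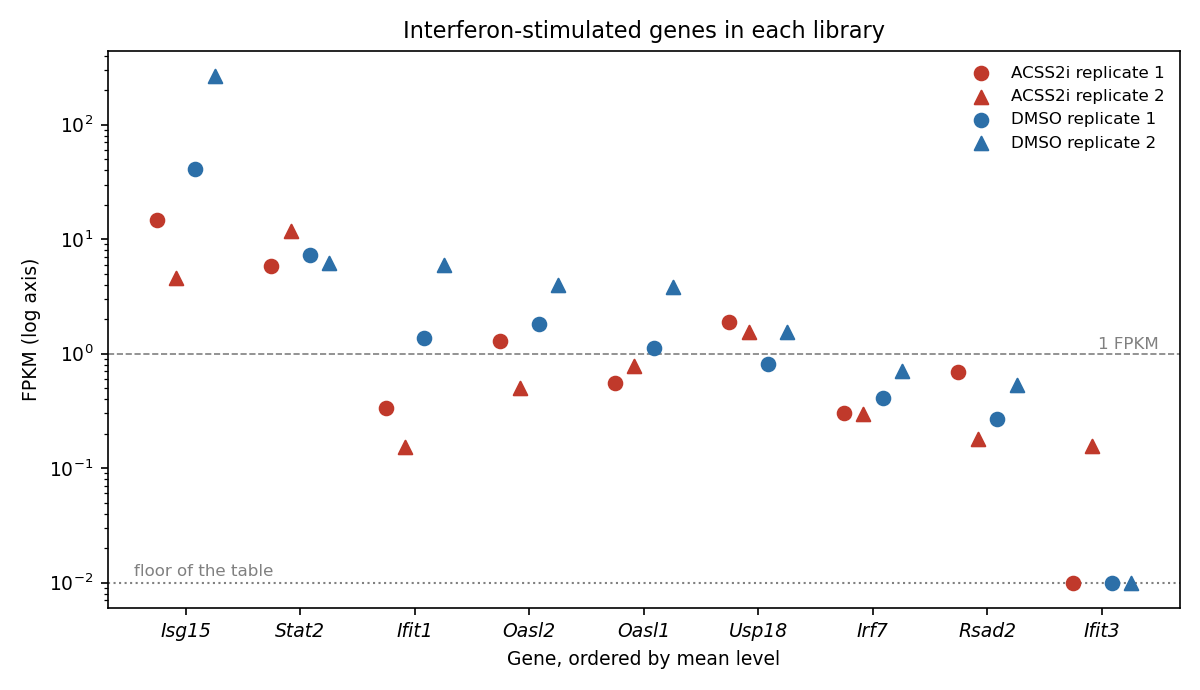
FPKM of each of the 9 genes in each of the 4 libraries, on a log axis, with genes ordered by their mean. Red symbols are ACSS2i and blue symbols DMSO libraries, circles replicate 1 and triangles replicate 2. DMSO replicate 2 has the highest value for Isg15, Ifit1, Oasl1, Oasl2 and Irf7.

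Isg15, a ubiquitin-like protein that is attached to other proteins and also secreted, lies on chromosome 4, 156199424 to 156200818 on the minus strand. It stood at 14.8 and 4.55 FPKM in ACSS2i replicates 1 and 2, and at 41.2 and 266 FPKM in DMSO replicates 1 and 2. Every ACSS2i value was below every DMSO value, and the DMSO libraries differed from each other 6.45 times. The means were 9.66 ± 7.22 FPKM in ACSS2i and 153 ± 159 FPKM in DMSO (SD, n = 2 each). The log2 fold change was -3.50 ± 0.91 (SE; 95% interval -5.73 to -1.27; limma unadjusted p = 0.00861, adjusted p = 0.499). In nominal reads these were 88 and 34 in ACSS2i and 363 and 682 in DMSO. The counting intervals, 11.9 to 18.2 and 3.12 to 6.29 FPKM in ACSS2i and 37 to 45.6 and 246 to 286 FPKM in DMSO, did not overlap between any pair of libraries. The spread within each group was therefore larger than counting error, although DMSO replicate 2 was the shallowest library. Without DMSO replicate 2 the log2 fold change was -2.17. Of its 756-base transcript, 482 bases align at 95.2% identity to the processed pseudogene AC151275.1, and how reads that fit both were counted is not given in the sources used here.

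IFIT proteins bind viral RNA. Ifit1, which recognises RNA with an incompletely methylated cap, lies on chromosome 19, 34640871 to 34650009 on the plus strand, and followed the order of Isg15. It was at 0.338 and 0.152 FPKM in ACSS2i replicates 1 and 2, and at 1.37 and 5.93 FPKM in DMSO replicates 1 and 2. The groups did not overlap, and the DMSO libraries differed 4.33 times. These values rest on 7 and 4 nominal reads in ACSS2i and 42 and 54 in DMSO. The counting interval of ACSS2i replicate 1, 0.135 to 0.69 FPKM, overlapped that of ACSS2i replicate 2 and ended below that of DMSO replicate 1, 0.977 to 1.83 FPKM. The log2 fold change was -1.71 ± 0.54 (SE; limma unadjusted p = 0.0204, adjusted p = 0.609), and -0.93 without DMSO replicate 2. With a pseudocount of 0.1 in place of 1 it was -3.16, and with 5 it was -0.67.

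Ifit3, whose product binds Ifit1 and stabilises it in human cells, lies next to its copy Ifit3b on chromosome 19, at 34583531 to 34588731 on the plus strand. It was at the floor of 0.01 FPKM in ACSS2i replicate 1 and both DMSO libraries and at 0.155 FPKM in ACSS2i replicate 2, about 3 nominal reads. A count of 0 allows up to 0.622 FPKM in DMSO replicate 2 (exact Poisson upper bound), so the count of 0 there does not exclude a level like that of ACSS2i replicate 2. Over 1700 of its 1745 bases Ifit3 is 97.8% identical to Ifit3b, which was also at the floor except in ACSS2i replicate 2 (0.0512 FPKM), so the assignment between the copies is uncertain. Ifit2, of the same family, was at 0.126 and 0.198 FPKM in ACSS2i and 0.106 and 0.291 FPKM in DMSO, and its groups overlapped.

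Oasl1 and Oasl2, neighbours on chromosome 5, encode oligoadenylate synthetase-like proteins that carry ubiquitin-like domains. Mouse Oasl1 is known to hold back translation of Irf7 mRNA. Oasl1 (114923240 to 114937915, plus strand) was at 0.551 and 0.772 FPKM in ACSS2i and at 1.12 and 3.83 FPKM in DMSO replicates 1 and 2. Oasl2 (114896936 to 114912234, plus strand) was at 1.28 and 0.505 FPKM in ACSS2i and at 1.81 and 3.99 FPKM in DMSO replicates 1 and 2. Both genes were lower in each ACSS2i library than in each DMSO library, with DMSO replicate 2 the highest. The ACSS2i library nearest to DMSO replicate 1 differed between the genes, replicate 2 for Oasl1 and replicate 1 for Oasl2. Oasl1 had 9 and 17 nominal reads in ACSS2i and 28 and 28 in DMSO, where equal reads give unequal FPKM because the depths differ. Its counting intervals in ACSS2i replicate 2 (0.454 to 1.25 FPKM) and DMSO replicate 1 (0.732 to 1.59 FPKM) overlapped, and so did those of Oasl2 in ACSS2i replicate 1 (0.89 to 1.84 FPKM) and DMSO replicate 1 (1.4 to 2.31 FPKM). The log2 fold change of Oasl1 was -0.95 ± 0.46 (SE; limma unadjusted p = 0.0855, adjusted p = 0.785), and -0.35 without DMSO replicate 2. For Oasl2 it was -1.02 ± 0.41 (SE; limma unadjusted p = 0.0493, adjusted p = 0.718), and -0.60 without DMSO replicate 2. With a pseudocount of 0.1 the values were -1.54 for Oasl1 and -1.61 for Oasl2, and with 5 they were -0.38 and -0.41.

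Irf7, the transcription factor that amplifies production of type I interferon, was below the filter for the test. On chromosome 7 (141262706 to 141266481, minus strand), it was at 0.302 and 0.297 FPKM in ACSS2i and at 0.407 and 0.699 FPKM in DMSO replicates 1 and 2. The groups did not overlap, but the values rest on 5 and 7 nominal reads in ACSS2i and 11 and 5 in DMSO. The counting interval of DMSO replicate 2, 0.213 to 1.53 FPKM, held all 4 values. Fitted without the filter, the log2 fold change was -0.25 (limma unadjusted p = 0.132).

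Stat2, the transducer that gives the ISRE-binding complex its activation domain, was expressed in every library at a level set by many more reads. On chromosome 10 (128270559 to 128292849, plus strand), it was at 5.78 and 11.9 FPKM in ACSS2i replicates 1 and 2, and at 7.33 and 6.23 FPKM in DMSO replicates 1 and 2. The ACSS2i libraries lay on either side of the DMSO libraries. The log2 fold change was 0.27 ± 0.35 (SE; 95% interval -0.60 to 1.14; limma adjusted p = 0.913), and without ACSS2i replicate 2 it was -0.20. Stat2 rested on 200 to 524 nominal reads in the ACSS2i libraries and on 376 and 93 in the DMSO libraries, and it alone among the 6 members that passed the filter was not higher in DMSO replicate 2 than in DMSO replicate 1.

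Usp18 removes Isg15 from its targets and also blocks signalling at the receptor subunit Ifnar2. On chromosome 6 (121245906 to 121270917, plus strand), it was at 1.88 and 1.54 FPKM in ACSS2i and at 0.811 and 1.56 FPKM in DMSO replicates 1 and 2. ACSS2i replicate 2 and DMSO replicate 2 were nearly level, so the groups overlapped. The log2 fold change was 0.33 ± 0.33 (SE; 95% interval -0.49 to 1.14; limma adjusted p = 0.88), at 26 and 27 nominal reads in ACSS2i and 17 and 9 in DMSO. The noncoding gene Gm44148 overlaps Usp18 on the opposite strand, and whether counting used strand is not given in the sources used here.

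Rsad2 encodes viperin, a radical SAM enzyme that makes a chain-terminating nucleotide. On chromosome 12 (26442746 to 26456452, minus strand), it was at 0.689 and 0.181 FPKM in ACSS2i replicates 1 and 2, and at 0.266 and 0.532 FPKM in DMSO replicates 1 and 2. The ACSS2i libraries held both the highest and the lowest value. Its log2 fold change without the filter was 0.02 (limma unadjusted p = 0.941), on 7 to 21 nominal reads in ACSS2i and 12 and 7 in DMSO. Cmpk2, its neighbour in the genome and partner in that reaction, was at 3.62 and 2.39 FPKM in ACSS2i and at 2.61 and 1.55 FPKM in DMSO (named after its values were seen).

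By mean level over the 4 libraries the order was Isg15 (81.5 FPKM), Stat2 (7.82), Ifit1 (1.95), Oasl2 (1.90), Oasl1 (1.57), Usp18 (1.45), Irf7 (0.426), Rsad2 (0.417) and Ifit3 (0.0462), all per length of transcript. Ifit1, Oasl2, Oasl1 and Usp18 overlapped in range and cannot be ranked beyond their spread, and the same holds for Irf7 and Rsad2. Isg15 and Stat2 also overlapped in range, because in ACSS2i replicate 2 Isg15 was at 4.55 and Stat2 at 11.9 FPKM. The mean of Ifit1, Oasl1 and Oasl2 over the ACSS2i libraries was below 1 FPKM (0.245, 0.662 and 0.894), so these genes passed the filter through the DMSO libraries. The median log2 fold change of the 6 members that passed, -0.98 against 0.02 over all tested genes, is for that reason only a description. Fitted without the filter, the median of all 9 was -0.25, against 0.00 over all genes.

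Isg15, Ifit1, Oasl1 and Oasl2 also stood apart between the DMSO libraries. On the log2(FPKM + 1) scale DMSO replicate 2 exceeded DMSO replicate 1 by 2.66 for Isg15, 1.55 for Ifit1, 1.19 for Oasl1 and 0.83 for Oasl2, which placed them 21st, 42nd, 88th and 244th from the top of 11486 tested genes. For the difference between groups they were 19th, 50th, 233rd and 195th from the bottom. The rankings share the DMSO values and are not independent. Ifit1, Oasl1 and Oasl2 also passed the filter through their DMSO values, so their ranks among tested genes are only a description. Usp18 differed by 0.50 between the DMSO libraries and Stat2 by -0.20. That Isg15, Ifit1, Oasl1 and Oasl2 were below DMSO replicate 1 in both ACSS2i libraries follows from how the lower set was defined. It is not a further result, and for Oasl1 and Oasl2 counting intervals overlapped with those of DMSO replicate 1.

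**Figure D3:**
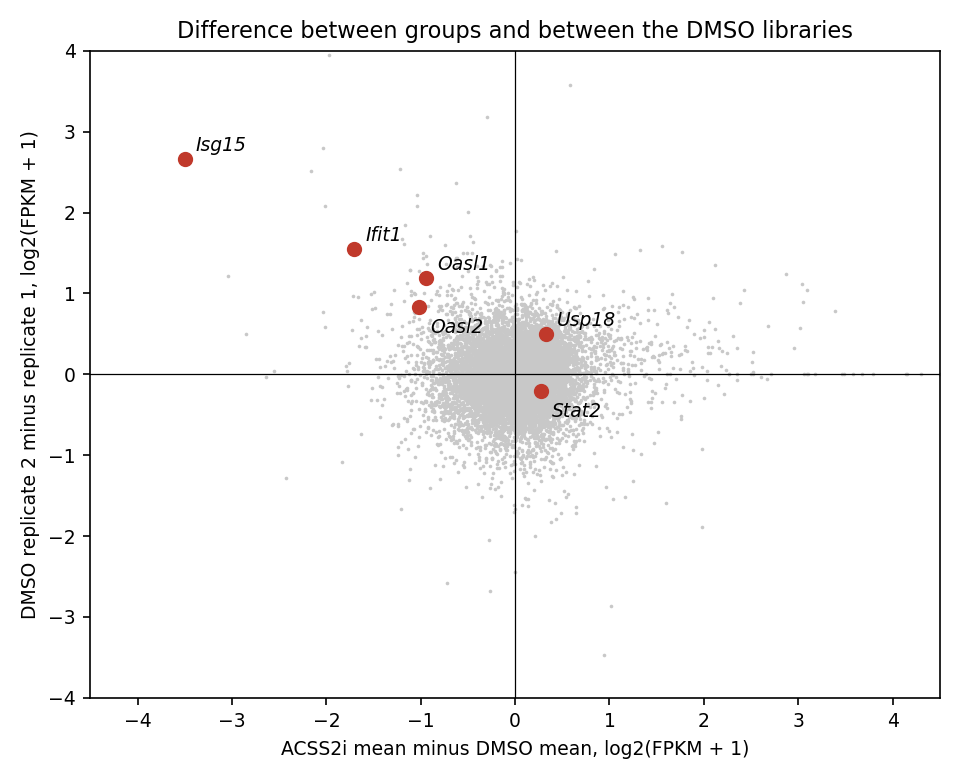
Each point is 1 of 11486 tested genes. The horizontal axis is the ACSS2i mean minus the DMSO mean and the vertical axis is DMSO replicate 2 minus DMSO replicate 1, both in log2(FPKM + 1), and both use the DMSO values; 61 genes lie outside the axes. The 6 tested members are red: Isg15, Ifit1, Oasl1 and Oasl2 sit at the upper left, at -3.50 and 2.66 for Isg15, and Stat2 and Usp18 near the origin.

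The interferons themselves were at or near the floor. Of 21 interferon genes of types I, II and III, 19 were at the floor in all 4 libraries, Ifnb1 among them, and the other two, Ifna13 and Ifnz, were above it in ACSS2i replicate 2 only (0.151 and 0.0737 FPKM). The receptor chains were expressed. Ifnar1 was at 7.44 and 7.66 FPKM in ACSS2i and 9.15 and 10.2 FPKM in DMSO, lower in both ACSS2i libraries, with a log2 fold change of -0.32 (limma adjusted p = 0.816). Ifnar2 was at 31.1 and 36.5 FPKM in ACSS2i and 46.3 and 31.3 FPKM in DMSO, and its groups overlapped. Ifngr1, the ligand-binding chain of the interferon-gamma receptor, had -0.35, and Il10rb, shared with the type III receptor, 0.10. Of the 5 tested receptor genes 0 passed, 2 had both ACSS2i values below both DMSO values and 0 above. Over all tested genes 18.3% were below in this sense and 19% above.

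Of 9 tested JAK-STAT and IRF genes 0 passed an adjusted p of 0.05 by limma, 0 lay below in both ACSS2i libraries and 2 above, with a median log2 fold change of 0.11. The kinase Jak1 was at 19 and 18.7 FPKM in ACSS2i and 16.7 and 15.9 FPKM in DMSO (log2 fold change 0.20). Irf9, which supplies most of the DNA contact of the complex, was at 2.69 and 5.64 FPKM in ACSS2i and 6.09 and 5.19 FPKM in DMSO, with overlapping groups. Tyk2, Irf2 and Irf3 had log2 fold changes of 0.20, 0.27 and 0.05. Of 11 tested nucleic acid sensors and adaptors 0 passed, 2 lay below and 2 above, with a median of -0.01. For both lists the shares over all tested genes were 18.3% below and 19% above. Dhx58, a cytosolic RNA sensor that is itself interferon-inducible, had the order of Isg15, at 1.38 and 0.755 FPKM in ACSS2i and 2.73 and 3.70 FPKM in DMSO replicates 1 and 2 (log2 fold change -1.03 ± 0.32, SE; limma unadjusted p = 0.0184). Samhd1, Traf3 and Trex1 had 0.32, -0.30 and 0.33.

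Among 30 tested genes of a wider list of antiviral interferon-stimulated genes, 0 passed, with a median log2 fold change of -0.15. Of the 30, 8 lay below in both ACSS2i libraries and 4 above, against 18.3% and 19% of all tested genes. Ifitm3, a membrane protein that blocks virus fusion, was at 2.93 and 5.66 FPKM in ACSS2i and at 15.1 and 26.5 FPKM in DMSO replicates 1 and 2 (log2 fold change -2.04 ± 0.38, SE; limma unadjusted p = 0.00179, adjusted p = 0.395). On the log2(FPKM + 1) scale the gap between its groups was wider than the range within either group. Ifitm3 was named for having the smallest p of its list, so this gap is only a description. Lgals3bp, a secreted glycoprotein, was at 25.9 and 32.6 FPKM in ACSS2i and 61.7 and 71.3 FPKM in DMSO (-1.16), and Tor3a and Ifi27 had -0.61 and -0.64. Mx1, a GTPase that traps incoming viruses, was below the filter, at 0.136 and 0.371 FPKM in ACSS2i and 0.747 and 0.655 FPKM in DMSO. Mx2, named after its values were seen, was at 28.2 and 6.6 FPKM in ACSS2i replicates 1 and 2 and at 4.19 and 8.22 FPKM in DMSO. Its high value was in ACSS2i replicate 1 alone, and ACSS2i replicate 2 lay between the DMSO libraries.

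The enzymes that attach Isg15 to proteins had log2 fold changes between -0.57 and 0.17. Uba7, the activating enzyme, was at 0.755 and 1.25 FPKM in ACSS2i and 1.80 and 2.12 FPKM in DMSO (log2 fold change -0.57). Ube2l6, the conjugating enzyme, was at 1.39 and 5.80 FPKM in ACSS2i and 2.42 and 4.84 FPKM in DMSO, and Herc6, the main ligase in mouse, at 2.06 and 1.68 FPKM in ACSS2i and 1.63 and 2.84 FPKM in DMSO. Trim25 had 0.17. Of the 4 genes 0 passed by limma, 1 lay below in both ACSS2i libraries and 1 above. Over all tested genes the shares were 18.3% below and 19% above. Whether Isg15 differed more than these genes was not tested.

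Genes of interferon-gamma responses and antigen presentation (17 tested) had 0 that passed, 5 below in both ACSS2i libraries and 1 above, with a median of -0.29. Psmb8, an immunoproteasome subunit, was at 14.5 and 13.2 FPKM in ACSS2i and 21.6 and 19 FPKM in DMSO, while Psmb10, of the same particle, was at 9.83 and 7.14 FPKM in ACSS2i and 5.74 and 4.35 FPKM in DMSO. B2m, the light chain of class I molecules, and H2-Q4 had log2 fold changes of -0.49 and -0.45. H2-Q4 was at 0.889 and 0.933 FPKM in ACSS2i and 1.5 and 1.71 FPKM in DMSO. Among 10 tested negative regulators 0 passed, 2 lay below and 2 above, with a median of 0.03. For both lists the shares over all tested genes were 18.3% below and 19% above. Cish, a cytokine-inducible inhibitor, had -1.14, Pias4 0.43, Ptpn11 -0.32 and Pias1 0.21. Cish was at a low level, 0.18 and 0.805 FPKM in ACSS2i and 1.18 and 3.76 FPKM in DMSO. Cish and H2-Q4 passed the filter through their DMSO values, so for both lists the count of genes below is only a description.

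Among 9 tested targets of NF-kB, a separate route of inflammation, 0 passed, with a median of -0.23. Of the 9, 4 lay below in both ACSS2i libraries and 1 above, against 18.3% and 19% of all tested genes. The cytokine Il6 had the order of Isg15, at 4.40 and 7.15 FPKM in ACSS2i and at 11.4 and 69.8 FPKM in DMSO replicates 1 and 2 (log2 fold change -2.16 ± 0.78, SE; limma unadjusted p = 0.032; -0.91 without DMSO replicate 2). Cxcl10, a chemokine that interferon also induces, was at 2.24 and 0.104 FPKM in ACSS2i and 0.888 and 7 FPKM in DMSO, with overlapping groups. Cd40 and Nfkbia had -1.10 and -0.64. The order of DMSO replicate 2 above DMSO replicate 1 above both ACSS2i libraries occurred in 8.57% of all tested genes. It was seen in 3 of these 9 genes, 6 of the 30 wider antiviral genes and 2 of 5 receptor genes. Other counts were 3 of 17 interferon-gamma and antigen presentation genes, 2 of 10 negative regulators and 1 of 4 Isg15-conjugating enzymes. For sensors and adaptors the count was 1 of 11, for JAK-STAT and IRF genes 0 of 9. Of the neuronal and catecholaminergic markers 0 of 16 had it. Cish and H2-Q4, counted here, passed the filter through their DMSO values.

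**Figure D4:**
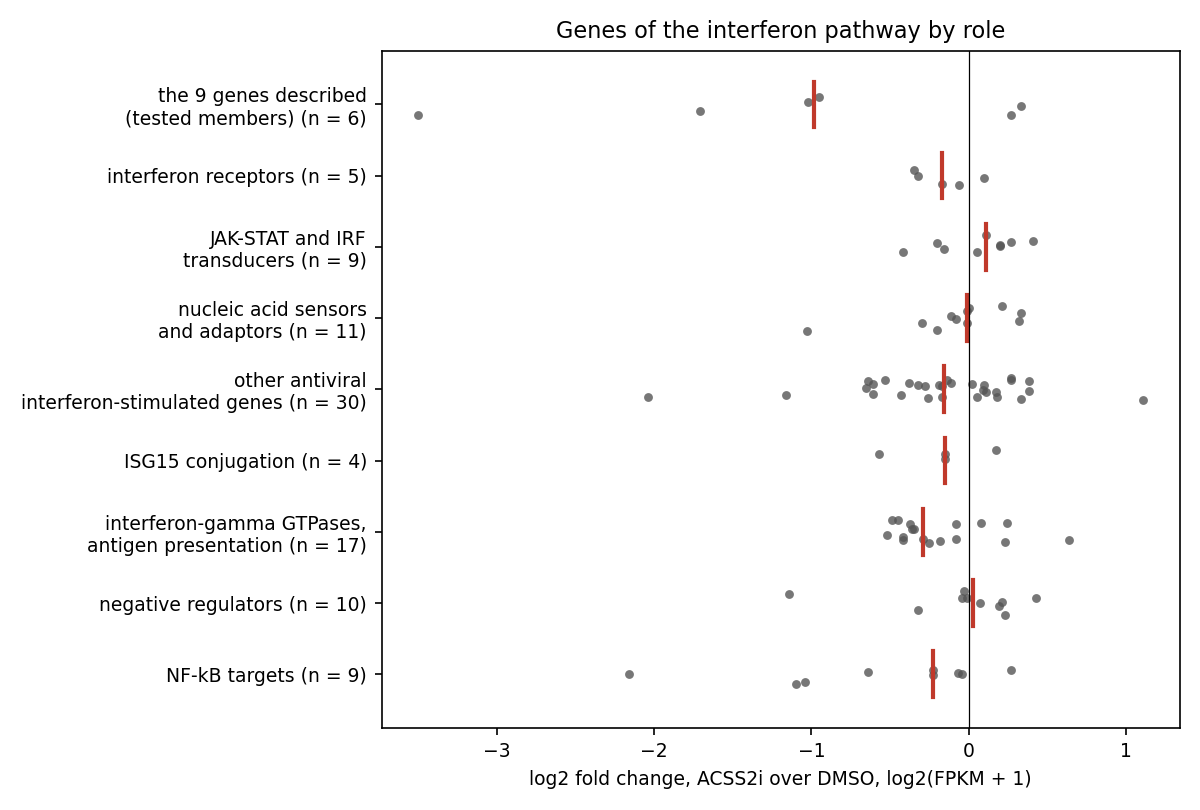
Log2 fold change, ACSS2i over DMSO on log2(FPKM + 1), of each tested gene by role in the interferon pathway; points are genes and red bars medians. Isg15 at -3.50 is the lowest point, and the medians of the lists other than the described genes lie between -0.29 and 0.11.

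Defining markers of immune cells, which respond strongly to interferon, were at or close to the floor. Of 16 macrophage and microglia markers 5 were at the floor in every library (Adgre1, C1qa, C1qb, C1qc and Trem2), and 1 of the 16 reached a mean of 1 FPKM. Ptprc was at the floor in all libraries but ACSS2i replicate 2 (0.0186 FPKM), and Tyrobp was at 0.327 and 0.515 FPKM in ACSS2i and 0.442 and 1.52 FPKM in DMSO. The summed level of the list was 40.6 and 29.7 FPKM in ACSS2i and 38.3 and 42.3 FPKM in DMSO, with overlapping groups. The 8 fibroblast markers summed to 1.71 and 1.34 FPKM in ACSS2i and 2.76 and 2.82 FPKM in DMSO, lower in both ACSS2i libraries. Col1a2, Col3a1 and Lum were at the floor in every library. Only Pdgfrb reached a mean of 1 FPKM, at 1.24 and 0.498 FPKM in ACSS2i and 2.16 and 1.99 FPKM in DMSO (log2 fold change -0.75, limma adjusted p = 0.759). The 6 astrocyte markers summed to 0.511 and 1.44 FPKM in ACSS2i and 0.253 and 0.418 FPKM in DMSO, higher in both ACSS2i libraries.

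The genes whose pattern lay nearest to the mean profile of the 6 members that passed the filter were sought among the 8660 other genes averaging 5 FPKM or more, by Euclidean distance between centred log2(FPKM + 1) profiles over the 4 libraries. They were Scg2, the secretory granule protein secretogranin II (distance 0.216), AA414768 (0.321), Tcn2, which carries vitamin B12 in plasma (0.328), Nrip1, a nuclear receptor corepressor (0.339), and Sez6l2, a neuronal membrane protein (0.399). Scg2 was at 349 and 328 FPKM in ACSS2i and at 576 and 1185 FPKM in DMSO replicates 1 and 2. Nrip1 was at 14.3 and 8.41 FPKM in ACSS2i and 17.4 and 35.2 FPKM in DMSO. Over 4 libraries, such likeness says no more than that DMSO replicate 2 was highest and both ACSS2i libraries lowest in these genes. The mean profile had that order, but its members Stat2 and Usp18 did not. Ifit1, Oasl1 and Oasl2 entered the profile because they passed the filter through their DMSO values.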

How the data were processed

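RNA-seq values of 2 ACSS2i and 2 DMSO libraries were analysed. Tools named in the submitters' processing notes are STAR 2.3.0, Cufflinks 2.2.1, Cuffdiff and bcl2fastq 02.14.01.07, with mm10 as the build; annotation, scaling and the adjustment of the table are not given in the sources used here. Since the header names no unit, the deposited values were taken as FPKM, after the tools named. A gene marked as failed was left out, leaving 24340.

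limma 3.58.1 (R 4.3.3; mean-variance trend, two-sided, Benjamini-Hochberg) was run on log2(FPKM + 1) after the filter at a mean of 1 FPKM, and the script was tested on simulated data. Depth relative to DMSO replicate 1 came from the commonest ratio of values up to 0.5 FPKM, and its scale from GENCODE M21 lengths of single-transcript genes, assuming that the lowest common step is 1 read; if that step were several reads, all nominal reads would scale alike. GENCODE M21 (GRCm38) also gave coordinates. Copies were sought among its transcripts with BLAST 2.17.0.

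Genes named were the 9 members, up to 4 genes with the smallest p per pathway list, a set of core pathway genes whatever their p, and the 5 nearest profiles. Some genes that this rule or the marker lists hold are not reported here. Members and lists were chosen with earlier results of these data known. Alternatives were pseudocounts, filters, scalings, a replicate block and leaving out each library.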

Additional observations from a re-analysis of the deposited data

How the results depend on the processing

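With limma, 0 of the members tested passed an adjusted p of 0.05 under any alternative run (all 9 were tested when no filter was set, 2 under the 5 FPKM filter and 6 otherwise), and the signs of Isg15, Ifit1, Oasl1, Oasl2 and Usp18 held wherever they were tested. The adjusted p of Isg15 ran from 0.21 to 1. Over all genes the 3 calls became 6 with a pseudocount of 0.1, 8 with the replicate block, 0 with a pseudocount of 5 (795 genes at an unadjusted p under 0.05), 0 without an expression filter (1342) and 0 without short RNA genes (835), and from 13 to 26 when a library was left out. Leaving out a library leaves 1 in its group, which is then assumed to vary like the other group, so these p-values and counts do not measure stability. The median log2 fold change of the tested members, -0.98, was -1.57 with a pseudocount of 0.1, -0.39 with 5, -0.25 without a filter, where all 9 members enter, and -1.62 with a mean of at least 5 FPKM, where only Isg15 and Stat2 remain among the members. It ran from -1.49 without DMSO replicate 1 to -0.48 without DMSO replicate 2.

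Among single genes, 12 of the recomputed log2 fold changes changed sign, all on leaving out a library and none in a gene that had passed, and 513 kept their sign. Over the 4 such fits, Stat2 ran from -0.20 (without ACSS2i replicate 2) to 0.74, Ifnar2 from -0.45 to 0.10 (without DMSO replicate 1), Il10rb from -0.29 (without DMSO replicate 2; -0.18 without ACSS2i replicate 2) to 0.50, and Tyk2 from -0.22 (without ACSS2i replicate 2) to 0.61. Irf9 ran from -0.84 to 0.00 (without ACSS2i replicate 1) and Trex1 from -0.14 (without ACSS2i replicate 1) to 0.80. Irf3 ran from -0.21 (without DMSO replicate 2) to 0.31, Herc6 from -0.42 to 0.12 (without DMSO replicate 2), Ube2l6 from -0.90 to 0.61 (without ACSS2i replicate 1; 0.24 without DMSO replicate 2) and Cxcl10 from -2.08 to 0.00 (without DMSO replicate 2). The cause was not tested.

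Replicate numbers are shared by the groups, but nothing states that they pair the libraries, and deviations of same-numbered libraries correlated at -0.0165 over 11486 genes. With the replicate block 8 genes were called over all and 0 of the members. Depth limits Ifit3, Irf7 and Rsad2, at 0 to 21 nominal reads a library. Some tested members had equally few reads. In ACSS2i Ifit1 had 7 and 4 and Oasl1 9 and 17, Oasl2 had 16 in ACSS2i replicate 2 and Usp18 9 in DMSO replicate 2.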
